A study of Mus musculus with 4 samples.

Results

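Timeless and 7 partners guard the replication fork and pass on the alarm when a fork stalls. Their mRNAs were described here in Hepa1-6 cells, a mouse hepatoma line, with and without knockdown of Chd1, an ATP-dependent chromatin remodeler. The 8 genes (Timeless, Tipin, Clspn, Wdhd1, Atr, Atrip, Chek1 and Topbp1) came from a named list of fork protection and ATR checkpoint factors, out of 23521 genes in the deposited table. All 8 had a mean of at least 1 RPKM (reads per kilobase of transcript, scaled by library size) and so were among the 10209 genes tested. The set was chosen on the same contrast that is described below, because Timeless stood among the genes called lower in Chd1KD. Its values are therefore a description of these libraries, and no test among the 8 is independent of that choice.

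Cells of the Control group (2 libraries, labelled wild type) carried a lentivirus with a scrambled shRNA. Those of the Chd1KD group (2 libraries) carried a lentivirus with an shRNA against Chd1. Both groups were grown in DMEM with serum and selected in 4 μg/ml puromycin over 3 weeks, so transduction and selection were common to all 4 libraries. Polyadenylated RNA was sequenced. Separate transductions or cultures are not named in the labels, so the spread behind each p-value is that between these libraries and may be technical.

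As background, the CMG helicase unwinds DNA at the fork while polymerases copy it. The Timeless-Tipin heterodimer rides with the helicase and keeps unwinding and synthesis together. When a fork stalls, single-stranded DNA coated with RPA draws the kinase ATR through its partner ATRIP, TOPBP1 switches the kinase on, and claspin presents the effector kinase CHK1 to it. CHK1 then restrains CDC25 phosphatases, which holds back origin firing and mitotic entry. Several of these genes are transcribed mainly as cells enter S phase, so their mRNA levels in a culture follow the share of dividing cells as well as the amount in each cell.

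Chd1 mRNA, the target of the knockdown, measured 21.4 and 22.5 RPKM in Control, against 10.4 and 11.3 in Chd1KD. Summed RPKM ranged from 459381 to 484490 over the libraries, and read depth is unknown. Of 8 hepatocyte and hepatoma markers, Trf, Alb, Afp and Hnf4a were at 18.6 RPKM or above in every library, while Ttr and Serpina1a were listed at 0 throughout and Apoa1 did not pass 0.37 RPKM. Alb differed widely within Control (18.6 and 55.6 RPKM). Chd1KD lay above Control without overlap for Afp (ratio 1.63) and below it for Hnf4a (0.78) and Trf (0.82), and none of these was called; their part in the values of the 8 genes was not tested. All 14 matched markers of macrophages and lymphocytes (5), endothelium (4), and fibroblasts and stellate cells (5) were under 1 RPKM in every library. Their summed levels reached 0.58, 0.092 and 0.49 RPKM at most, and 3, 3 and 2 of them were at 0 throughout.

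Timeless has 4 RefSeq transcripts in the table, and their sequences matter for reading its change. The gene spans 128232063 to 128252941 on chromosome 10 (mm10, plus strand) and is protein-coding. As GENCODE M21 models them, each transcript has 29 exons and all 4 share 26 of these. They differ in the first exon, in the last exon, and in the first 3 bases of exons 24 and 29, where the splice acceptor lies at either end of a CAG triplet. The sequences below, read from GENCODE M21 transcripts (GRCm38) on the coding strand, join the end of one exon to the start of the next. Capitals mark the triplet that is kept or skipped in the coding sequence.
NM_001164081, into exon 24 (acceptor at 128250285): ccttcttgcatgCAGaatggagaaaag
NM_001136082, into exon 24 (acceptor at 128250288): ccttcttgcatgaatggagaaaag
NM_001164081, into exon 29 (acceptor at 128252192): ggaggaggcaagCAGtgtcgggaacgc
NM_001164080, into exon 29 (acceptor at 128252195): ggaggaggcaagtgtcgggaacgc

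NM_001164081 keeps both triplets and codes for 3591 bases, and NM_001136082 and NM_001164080 each skip 1 and code for 3588 bases. The first exons of these 3 transcripts end at the same base, 128232175, and begin at 128232065, 128232134 and 128232089. NM_001164080 also ends 89 bases before the others within the last exon, which stops at 128252852. NM_011589 keeps both triplets but starts in a separate first exon, at 128238066. Every library lists it at 0, and a 0 in this table is not proof that the transcript was missing.

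Timeless, summed over its transcripts, was 16.5 and 15.2 RPKM in Control, against 9.66 and 10.4 in Chd1KD. Both Chd1KD libraries lay below both Control libraries. Mean levels were 15.9 ± 0.90 RPKM and 10.05 ± 0.54 RPKM (SD, n = 2 each), which put Chd1KD at 0.63 of Control. The log2 fold change was -0.61 (SE 0.07; limma, adjusted p = 0.038), taken on log2(RPKM + 1), where low genes change less than their RPKM. Each of the 4 differences between a Chd1KD and a Control library was between -0.72 and -0.51 log2, against -0.11 between the Control libraries (replicate 2 minus replicate 1) and 0.10 between the Chd1KD libraries.

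Most of the fall in Timeless, 81.5% of the difference in mean RPKM, sat in the NM_001164081 row. That row measured 9.26 and 7.59 RPKM in Control, against 3.05 and 4.30 in Chd1KD, a ratio of 0.44. The groups did not overlap, and the row's share of all Timeless RPKM went from 56.1% and 49.8% in Control to 31.5% and 41.2% in Chd1KD. NM_001164080, which skips the exon 29 triplet, was 4.67 and 4.71 RPKM in Control, against 4.64 and 3.84 in Chd1KD, a ratio of 0.90. NM_001136082, which skips the exon 24 triplet, was 2.59 and 2.93 RPKM in Control, against 1.98 and 2.29 in Chd1KD, a ratio of 0.77. In both of these rows the Chd1KD values were below the Control values too, by smaller amounts.

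Grouped by the exon 29 acceptor shown above, transcripts that keep the triplet made up 71.7% and 69.1% of Timeless RPKM in Control and 52.0% and 63.2% in Chd1KD. By the exon 24 acceptor the shares with the triplet were 84.3% and 80.8% in Control and 79.5% and 78.0% in Chd1KD. The groups were thus further apart in the exon 29 shares than in the exon 24 shares, and in the former the Chd1KD libraries differed from each other by more than the Control libraries did. For each exon, only a single row above skips the triplet, so these shares restate the shares of those rows. They do not measure acceptor use apart from the other differences between the transcripts. Because the transcripts share most of their exons, most reads cannot be assigned to a single row, and how the authors' quantification divided them is not given in the sources used here.

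Without the NM_001164081 row, Timeless had a log2 fold change of -0.20 and was not called (limma, adjusted p = 0.24, an alternative chosen after seeing the data). When each gene was represented by its most abundant row instead of the sum, NM_001164081 gave -1.02 (limma, adjusted p = 0.091). The call on the summed gene was also lost without a filter on low values (limma, adjusted p = 0.25) and without a variance trend (limma, adjusted p = 0.077).

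**Figure D1:**
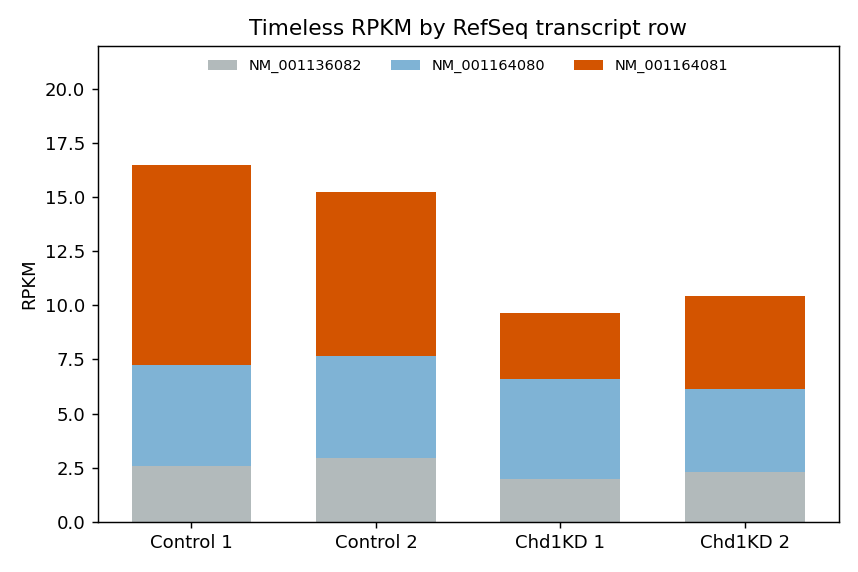
Stacked bars give the RPKM of the 3 Timeless transcript rows above 0 in each of the 4 libraries, with RPKM on the vertical axis. The NM_001164081 segment shrinks from 9.26 and 7.59 RPKM in Control to 3.05 and 4.30 RPKM in Chd1KD, while the other segments change less.

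Tipin, the partner of Timeless in the fork protection complex, had the next lowest ratio. The gene lies on chromosome 9 from 64281491 to 64305422 and has 1 transcript row. It was 46.5 and 41.6 RPKM in Control, against 33.4 and 32.6 in Chd1KD. The groups did not overlap, and the Control libraries were further apart than the Chd1KD libraries. Mean levels were 44.04 ± 3.4 RPKM and 33.0 ± 0.57 RPKM (SD, n = 2 each), which put Chd1KD at 0.75 of Control, with a log2 fold change of -0.40 (SE 0.07). Tipin was not called (limma, adjusted p = 0.076). It was called with a robust variance trend (limma, adjusted p = 0.048). It was also called without Control replicate 2 (-0.48; limma, adjusted p = 0.019), where Control is 1 library assumed to vary like the Chd1KD pair and 236 genes were called in place of 47.

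The ratio of Timeless to Tipin mRNA, both per length, was 0.355 and 0.366 in Control and 0.289 and 0.320 in Chd1KD. In every library Tipin was thus the more abundant of the pair, and the ratio was lower in both Chd1KD libraries than in either Control library. Clspn, on chromosome 4 from 126556957 to 126594533, encodes claspin, the adaptor that joins this complex to CHK1. It was 17.6 and 15.8 RPKM in Control, against 16.5 and 15.3 in Chd1KD, a ratio of 0.95. The groups overlapped, and the difference between the Control libraries (-0.14 log2) was larger than the fold change of -0.07 (SE 0.08), which turned to 0.0038 without Control replicate 1.

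Wdhd1 encodes the AND-1 protein, which ties the helicase to DNA polymerase alpha, and lies on chromosome 14 from 47240944 to 47276861. Its level was 10.44 and 10.48 RPKM in Control, against 9.49 and 9.72 in Chd1KD, a ratio of 0.92. The groups did not overlap, and the log2 fold change of -0.11 (SE 0.06) had a 95% interval from -0.27 to 0.04. Relative to Wdhd1, another replisome scaffold, Timeless went from 1.58 and 1.45 in Control to 1.02 and 1.07 in Chd1KD.

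The sensor kinase and its partner had the smallest differences of the 8 genes. Atr, on chromosome 9 from 95857597 to 95953217, was 4.50 and 4.64 RPKM in Control, against 4.48 and 4.60 in Chd1KD. Atrip, which brings the kinase to RPA-coated DNA, lies on chromosome 9 from 109059747 to 109074124 and was 5.25 and 4.66 RPKM in Control against 5.02 and 4.99 RPKM in Chd1KD. Both genes overlapped between the groups, with ratios of 0.99 and 1.01. Their log2 fold changes were -0.01 (95% interval -0.19 to 0.18) and 0.01 (-0.19 to 0.21), so moderate changes either way lie within the intervals. The sign of Atr turned under quantile normalization (0.03), under median ratio scaling (0.01) and without Control replicate 2 (0.01) or Chd1KD replicate 1 (0.0093), and that of Atrip turned without Control replicate 2 (-0.06). The ratio of Atr to Atrip was 0.86 and 0.99 in Control and 0.89 and 0.92 in Chd1KD.

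Topbp1, the activator of ATR, lies on chromosome 9 from 103305167 to 103350428. It was 33.1 and 33.6 RPKM in Control, against 31.8 and 30.01 in Chd1KD, a ratio of 0.93. The groups did not overlap, with a log2 fold change of -0.11 (SE 0.06, 95% interval -0.25 to 0.04). Chek1, the effector kinase, lies on chromosome 9 from 36708482 to 36726658. It was 6.30 and 5.76 RPKM in Control, against 5.31 and 4.85 in Chd1KD, a ratio of 0.84. All Control values exceeded all Chd1KD values, and the log2 fold change was -0.21 (SE 0.08; limma, adjusted p = 0.25). Clspn stood at 2.80 and 2.75 times Chek1 in Control and at 3.11 and 3.16 times Chek1 in Chd1KD.

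**Figure D2:**
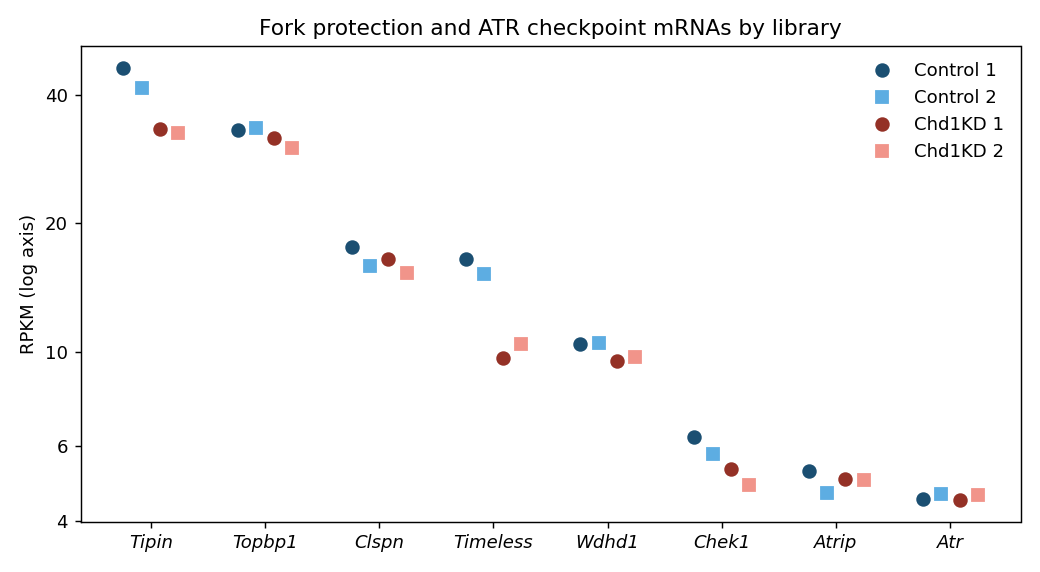
Each point is the RPKM of 1 gene in 1 library, on a log axis, with the 8 genes ordered by their mean over the 4 libraries. The Control and Chd1KD points separate most for Timeless and Tipin and lie together for Atr and Atrip.

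Across the 8 genes, 1 was called (limma, adjusted p under 0.05), beside 0.46% of all 10209 tested genes called in either direction and 0.186% called lower in Chd1KD. The called gene is Timeless, which was chosen for that. The adjusted p of the other 7 ran from 0.076 (Tipin) to 0.97 (Atr). A negative fold change was found for 7 of the 8, beside 56.5% of tested genes. Chd1KD lay below Control without overlap for 5 of the 8 (Timeless, Tipin, Wdhd1, Chek1 and Topbp1), beside 30.5% of tested genes, and above it for none. The median log2 fold change of the 8 was -0.11, against -0.02 over tested genes. The Control libraries differed by a like amount, with a median of -0.11 over the 8 (replicate 2 minus replicate 1) and of -0.03 over tested genes. Over tested genes, Control replicate 2 correlated at 0.994 with Chd1KD replicate 2 and at 0.992 with Control replicate 1. Its median absolute differences from these libraries were 0.097 and 0.095 log2, so the groups were not clearly apart over all genes.

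In all 10209 fold changes ordered from the most negative, Timeless stood at place 40, Tipin at 131 and Chek1 at 1004. Wdhd1 (2577), Topbp1 (2726) and Clspn (3703) followed within the lower part of the order, and Atr (5553) and Atrip (6186) stood just past its middle. The fork protection pair had the most negative values, the ATR-ATRIP pair the values nearest to 0, and the other 4 lay between them. Timeless was chosen for its fall, so its own place at the low end follows from that choice.

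**Figure D3:**
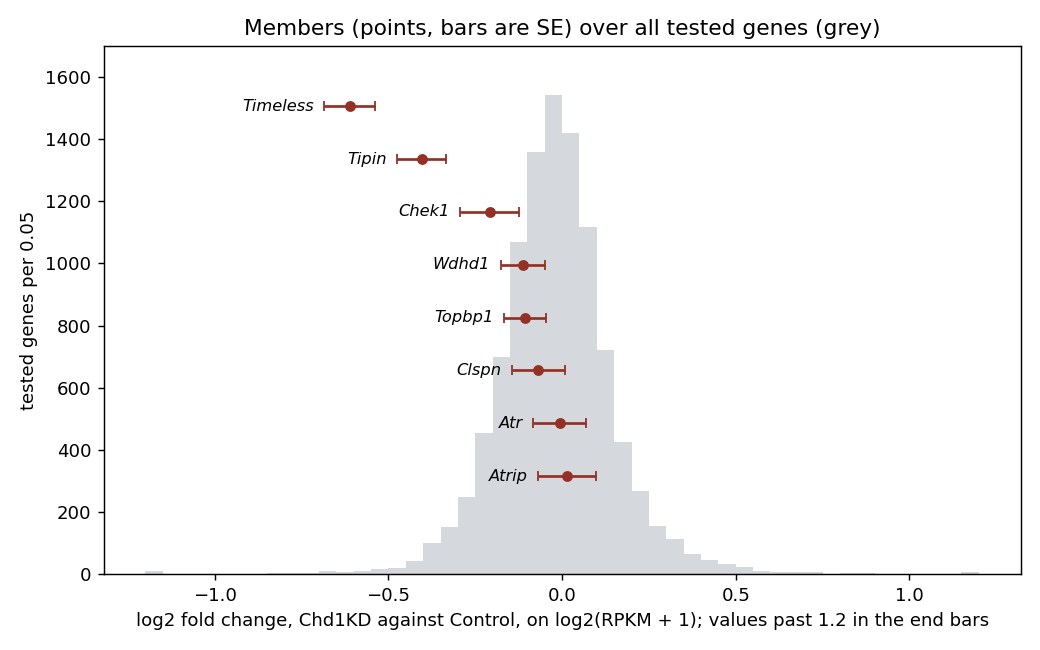
Grey bars count all 10209 tested genes by log2 fold change on log2(RPKM + 1), and red points with SE bars place the 8 genes on the same horizontal axis (their height has no meaning). Timeless at -0.61 and Tipin at -0.40 lie in the left tail, and Atr and Atrip lie at the centre.

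By level, the order over the 4 libraries was Tipin, Topbp1, Clspn, Timeless, Wdhd1, Chek1, Atrip and Atr, from a mean of 38.5 RPKM down to 4.55 RPKM. The ranges of Tipin and Topbp1 overlapped, as did those of Clspn and Timeless, Timeless and Wdhd1, and Chek1 and Atrip. Topbp1 stayed above Clspn, Wdhd1 above Chek1, and Atrip above Atr in all libraries. In Control, Timeless lay close to Clspn, and in Chd1KD it lay close to Wdhd1.

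Markers of S phase and proliferation were lower in sum in Chd1KD as well. Their summed level over 14 genes was 978 and 912 RPKM in Control, against 881 and 862 in Chd1KD, and none was at 0. The sums of the Control libraries were further apart than those of Control replicate 2 and Chd1KD replicate 1. Pcna had the largest values in this sum, 246 and 225 RPKM in Control, against 207 and 202 in Chd1KD. Of the 14, 12 had a negative fold change and none was called, with a median of -0.11, like that of the 8 genes. Chd1KD lay below Control without overlap for 7 of the 14, beside 30.5% of tested genes, and above it for 2. Mki67 had a ratio of 0.999. Cdt1, a licensing factor of S phase entry, was 0.79 of Control. The cyclin E genes Ccne1 and Ccne2, which drive entry into S phase, had the only positive values, with ratios of 1.17 and 1.18. In bulk RNA, fewer cells in S phase and less mRNA per cell cannot be told apart, and the part of cell cycle stage in the fall of Timeless was not tested.

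The genes that act next to the 8 were described by lists. No gene of the 9 lists, the S phase markers included, was called in either direction (limma), beside 0.46% of all tested genes. An absence of calls in lists of this size is near that share. At an unadjusted p under 0.05, which 1890 of all 10209 tested genes and 3 of the 8 reached, stood 12 of 23 replisome partners, 7 of 14 S phase markers, 3 of 10 genes of the ATM branch and 1 or 2 genes of each other list. Of 9 tested partners in ATR activation, 7 had a negative fold change (median -0.11). The RPA subunits Rpa3 and Rpa2, which coat single-stranded DNA, had ratios of 0.81 and 0.85, and Rad9a, of the clamp that recruits TOPBP1, 0.89. Rad17, which loads that clamp, had a ratio of 1.02.

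Of 23 tested replisome and fork partners, 22 had a negative fold change and 20 had Chd1KD below Control without overlap, beside 56.5% and 30.5% of tested genes, with a median of -0.18. Among these was Dscc1, a subunit of the clamp loader that works with cohesion factors. It was 12.4 and 10.8 RPKM in Control, against 7.87 and 8.46 in Chd1KD, a ratio of 0.70 close to that of Tipin (limma, adjusted p = 0.085). Pold1, the catalytic subunit of polymerase delta, and Mcm3, a subunit of the helicase that Timeless contacts, had ratios of 0.79 and 0.80. The exception was Gins3, a GINS subunit, at 1.07. Within Control, replicate 2 was also below replicate 1 for all of this list but Ddx11, Pola1, Recql4 and Ticrr. Mcm2, for example, was 95.7 and 87.4 RPKM in Control, against 72.5 and 73.4 in Chd1KD. The median of this list lay further below 0 than that of the 8 genes, and the 2 medians were not compared by a test.

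In the kinase branch parallel to ATR, Atm, the kinase activated by double-strand breaks, had a ratio of 1.01, close to the 0.99 of Atr, and its effector Chek2 had 0.91 beside 0.84 for Chek1. Of the 10 tested genes of this branch, 8 had negative fold changes (median -0.13), among them Rad50, of the break sensor complex, at 0.84, and H2ax, the histone variant marked at breaks, at 0.85. All 5 chaperone genes that stabilise ATR, ATM and related kinases had negative fold changes (median -0.14), led by Telo2 at 0.80.

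Downstream of CHK1, 5 of 8 checkpoint outputs had negative fold changes (median -0.08). Pkmyt1, which phosphorylates and inhibits CDK1, was 11.6 and 10.5 RPKM in Control, against 9.09 and 7.92 in Chd1KD, a ratio of 0.77. Cdc25a, the phosphatase that CHK1 sends for degradation, had a ratio of 1.002, and Wee1, the other inhibitory kinase of CDK1, 1.10. Among 10 genes of claspin and CHK1 turnover, 5 had negative fold changes (median -0.02). Plk1, the kinase that marks claspin for degradation, was at 0.85, and Usp7, a deubiquitinase that stabilises claspin, at 1.07. Fzr1, Usp20 and Usp28 of the same list were at 0.83, 0.89 and 0.88. All 11 genes of fork remodelling and restart had negative fold changes (median -0.14), with Zranb3, a fork-reversing translocase, at 0.80.

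Timeless is named after a clock gene of the fly, so clock genes were listed as well. Of 6 tested clock genes 4 had negative fold changes (median -0.04). Nr1d1 was at 0.83, Clock at 0.87 and Arntl at 1.08. Cry1 and Cry2, whose proteins bind TIMELESS, were at 0.94 and 1.06. Timeless at 0.63 lay below all of these.

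**Figure D4:**
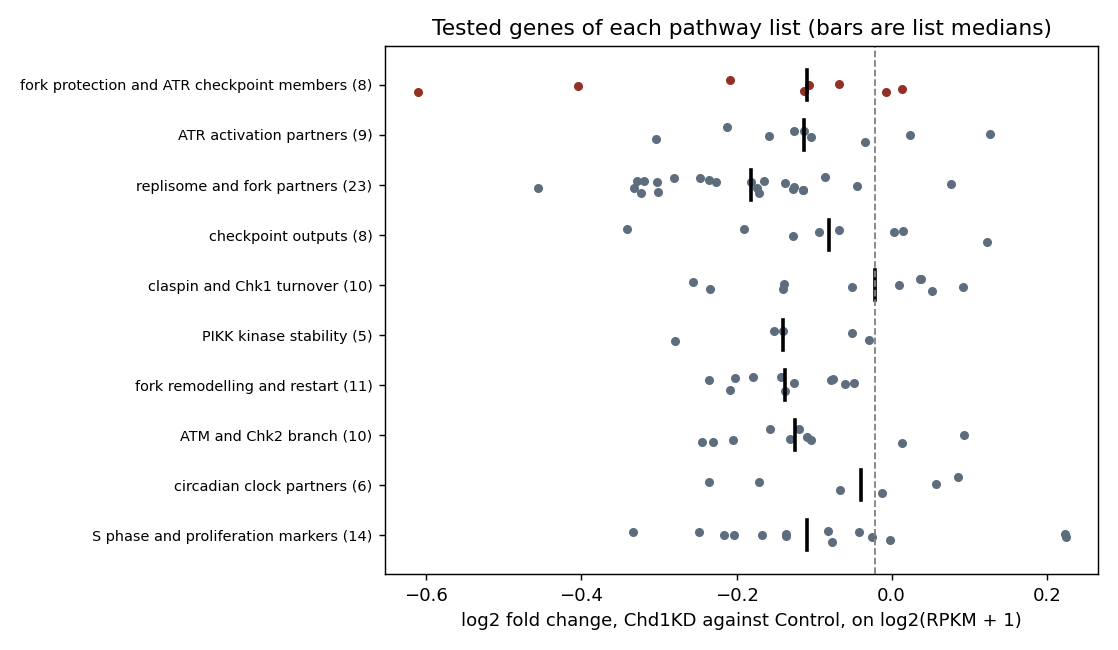
Each point is 1 tested gene, placed by its log2 fold change on log2(RPKM + 1), in rows by list with the number of tested genes in brackets. Black bars are list medians and the dashed line is the median over all tested genes, -0.02. The replisome row has its median at -0.18, and the 2 lowest red points are Timeless and Tipin.

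Over the 4 libraries, the genes whose profile was most like that of Timeless were Cp, Cenpv, Nup210, Il1rn and Golga7. Likeness was the Euclidean distance between log2(RPKM + 1) profiles, each centred on its own mean, and ran from 0.080 for Cp to 0.10 for Golga7. Cp encodes ceruloplasmin, Cenpv a centromere-associated protein, Nup210 a nuclear pore protein and Il1rn the interleukin-1 receptor antagonist. None of the 5 is a fork or checkpoint factor of the lists above. Cp was low, at 2.40 and 2.21 RPKM in Control, against 0.96 and 1.22 in Chd1KD, a ratio of 0.47. On log2(RPKM + 1) low genes change less than their RPKM, which bears on its closeness to Timeless. Cenpv was 25.7 and 24.9 RPKM in Control, against 14.6 and 16.6 in Chd1KD, a ratio of 0.62. Tipin came at place 56 (distance 0.23) and Chek1 at place 899. With 4 libraries in 2 groups, this distance mostly ranks genes by the size of their difference between the groups.

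Promoter windows from 250 bases before to 50 after an annotated start (RefSeq, GRCm38.p6) were found for 7 of the 8 genes, all but Tipin. The window of Timeless belongs to the start of NM_011589, which was listed at 0, and lies 5932 to 6001 bases from the starts of the other rows. E2F factors are known for switching on S phase genes, and the windows were searched on both strands for the E2F words TTTCCCGC, TTTGGCGC, TTTCGCGC, TTTGCCGC and GGCGGGAA. A match stood in 3 of the 7 windows and in 3.89% of 32851 windows of all genes. The 3 matches are shown because they mark the members that share this feature. Each run has 30 bases on the strand of the gene, with the matching word or its reverse complement in capitals.
Clspn, chr4:126556990-126557019, plus strand: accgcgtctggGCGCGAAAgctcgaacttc
Chek1, chr9:36726609-36726638, minus strand: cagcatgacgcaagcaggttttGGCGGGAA
Topbp1, chr9:103305187-103305216, plus strand: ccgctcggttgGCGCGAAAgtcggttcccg

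Counted from the annotated start that set the window, the word begins at position 22 in Clspn, 43 in Chek1 and -129 in Topbp1. The words of Clspn and Chek1 lie in the transcribed part. For Topbp1 that start (103305327) lies downstream of the start of the measured row (103305215), so its word lies nearer to the latter. The starts also differ for Clspn (126556980, measured row 126556935) and Atr (95857597, measured row 95857706). Clspn, Chek1 and Topbp1 had ratios of 0.95, 0.84 and 0.93. Leaving Timeless aside, the 3 with no match had 0.92 (Wdhd1), 0.99 (Atr) and 1.01 (Atrip). The CCAAT box was present in 2 of the 7 windows (Clspn and Atrip) and in 37.4% of all, and the CHR word TTTGAA in 0 of the 7 and in 17.9% of all. A match is a string of letters in a window and says nothing about binding.

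Other annotated genes overlap 6 of the 8. Atr overlaps the protein-coding 1700065D16Rik, and Timeless the noncoding Gm26847. The strand setting of the authors' quantification is not given in the sources used here, so reads of such partners cannot be told apart. Chek1 and Topbp1 overlap no other gene in the NCBI table.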

How the data were processed

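Per the file headers, the authors deposited RPKM for 30582 RefSeq transcript rows in 4 libraries of polyadenylated RNA. TopHat 1.4.1, Cufflinks 1.3.0 and mm10 are named per the submitters' processing notes. The sources used here do not state settings, annotation release or strandedness. For gene names, the NCBI table for GRCm38.p6 named 29999 rows and GENCODE M21 another 184, 399 kept their accession, and RPKM was summed per gene. Low RPKM values showed no clear step between libraries (27 to 57 of 794 transcripts shared the commonest ratio), so depth is unknown and no counting interval is given.

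All genes whose mean reached 1 RPKM entered a limma fit (version 3.58.1, R 4.3.3) of log2(RPKM + 1) with a variance trend and without covariates. A call was a Benjamini-Hochberg adjusted p under 0.05 over all tested genes. The fit was also run on values simulated with its own variances, which cannot check it against the real error of these libraries. The 8 genes and the 9 pathway lists were chosen with earlier results of these data known. Genes given by name were the 8 members, the 3 of smallest p in each list and the 5 most like Timeless, and some that this rule takes are not printed. Rad17, Gins3, Atm, Chek2, Cdc25a, Wee1, Usp7, Usp28, Cry1 and Cry2 were named after their values were seen. So were Mcm2, Ddx11, Pola1, Recql4, Ticrr, Pcna and Mki67. H2ax was matched through its older symbol H2afx, and Rhno1 and Cd68 were not matched. Other settings of the pseudocount, filter, scaling, variance model, replicate block and transcript were tried, and each library was left out in turn.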

Additional observations from a re-analysis of the deposited data

How the results depend on the processing

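The count of called genes was 47. With no filter on low values it was 0 (limma; 2153 genes had an unadjusted p under 0.05). It was 71 with a mean RPKM of at least 5, 6 with no variance trend, 92 with a robust trend, 12 with the most abundant transcript, and from 49 to 236 when 1 library was left out (236 when this was Control replicate 2, 140 for Control replicate 1, 122 for Chd1KD replicate 2). Of the 8 genes, 1 was called in the main setting and 0 with no filter, no variance trend or the most abundant transcript. With a robust trend 2 were called, and 1 to 2 when 1 library was left out, the second being Tipin each time. Timeless kept its log2 fold change of -0.61 with no filter and with no variance trend but lost its call in both. It lost it too with the most abundant transcript (-1.02) and without NM_001164081 (-0.20), and ran from -0.67 to -0.56, still called, when 1 library was left out. Each of those fits has an arm of 1 library, assumed to vary like the other group, so a call there is no sign of stability. The cause of these changes was not tested.

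The replicate numbers share no stated origin. Deviations of same-numbered libraries from their group means correlated at r = 0.22 over tested genes, a hint from the data only. With the number as a replicate block, 325 genes and 2 of the 8 (Timeless and Tipin) were called. Signs turned for 3 of the 8. Clspn ran from -0.14 to 0.0038 over the fits with 1 library left out, Atr from -0.025 to 0.011 and Atrip from -0.057 to 0.085. Atr was also positive under quantile normalization (0.032) and median ratio scaling (0.012). Depth is unknown, so counting error could not be set for Atr, Atrip and Chek1, the lowest of the 8.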
